A study of Rattus norvegicus with 5 samples.

Results

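The genes described here are 10 rat genes of mitotic kinases and the spindle assembly checkpoint: Aurka, Aurkb, Plk1, Nek2, Bub1, Bub1b, Ttk, Tpx2, Incenp and Birc5. They were chosen by name. Of the 10, 9 were found among the 15167 named genes of the array, by 11 probes, and no probe was matched to Bub1b. RNA levels were read on one-colour Agilent arrays in BRL-3A, a cultured line from Buffalo rat liver. The groups had 1 array each: cells with a Tmub1 knockdown lentivirus, cells with the negative control virus of the knockdown, cells with a Tmub1 overexpression lentivirus, cells with the negative control virus of the overexpression, and normal cells without virus. Tmub1 is a membrane protein that carries a ubiquitin-like domain. Transduced cells were harvested 48 h after transduction, and in all 5 groups the labelled RNA was made from 1 µg of total RNA. No promoter, titre or clone of the viruses is given in the sources used here, and the labels call the line hepatocyte cells.

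Mitotic kinases are enzymes that drive a cell through division, and most of them are made in step with the cell cycle, with RNA and protein at their highest in G2 and M phase. Aurora A (Aurka) works at spindle poles, where Tpx2 activates it. Aurora B (Aurkb) works at centromeres within the chromosomal passenger complex, with the scaffold Incenp and the small subunit survivin (Birc5). Polo-like kinase Plk1 acts from mitotic entry to cytokinesis, and Nek2 separates the centrosomes. Bub1, Ttk (also called Mps1) and Bub1b (BubR1) hold back anaphase until every kinetochore is attached. In adult liver hepatocytes seldom divide, and these genes are known there mainly for their rise during regeneration, while in a growing culture they mark dividing cells.

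All levels below are log2 processed signals minus the 75th percentile of the same array, so a level of 0 is as bright as that percentile. A gene was called higher or lower where 2 arrays differed by at least 2.5-fold and the scanner software had marked the brighter of them as well above background. No group was replicated, so differences were not tested and have no p-value. The 95% intervals beside differences come from the scanner's own error of the spots and cover neither cultures nor hybridisations. A bulk level cannot tell fewer dividing cells from less RNA in each cell.

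Tmub1 itself had a level of -1.42 in knockdown cells, against 0.45 in the knockdown negative control, a 3.65-fold lower value. In overexpression cells it was 0.44, against 0.37 in the overexpression negative control, so the array did not show higher Tmub1 RNA with the overexpression virus. The sources used here do not say whether the Tmub1 probe lies within the sequence the virus carries, so this value does not check the overexpression label. Comparisons with overexpression are of the array labelled overexpression. The arrays differed in brightness, with a median signal of 356 in knockdown cells, 116 to 160 on the other 3 transduced arrays and 329 in normal cells. Between 67.0% and 86.6% of probes were well above background. The fibroblast or stellate marker list was well above background for 7 of 7 genes on every array, with list medians of 3.14 to 5.14. Of 9 hepatocyte markers, 6 to 8 were well above background, with list medians of -4.70 to -3.76. They were uneven. The plasma protein gene Ahsg had a level of -2.19 in knockdown cells, 0.35 to 0.64 on the other 3 transduced arrays and 0.96 in normal cells. Transferrin (Tf) had -0.56 in knockdown cells, 0.32 to 0.52 on those 3 and -3.76 in normal cells. Albumin (Alb) was not above background in knockdown cells, the overexpression negative control or normal cells. The 4 transduced arrays were scanned together and the normal array in another scan, so scan and group cannot be told apart in every comparison with normal cells.

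Promoter sequence was at hand for 7 of the 10 genes, in RefSeq windows on the GRCr8 build that run from 250 bases before to 50 bases after the gene start, and not for Aurkb, Tpx2 or Incenp. Many genes of G2 and M phase share a promoter element, the cell cycle genes homology region (CHR), bound by the MuvB complex, often beside CCAAT boxes bound by NF-Y. The letters TTTGAA, searched on both strands, were in 4 of the 7 windows (Plk1, Bub1b, Ttk and Birc5) and in 18.35% of 33469 RefSeq windows of the same length. CCAAT, on both strands, was in 4 of the 7 (Plk1, Nek2, Ttk and Birc5) and in 37.49% of all windows. Both were in 3 of the 7, and in 7.41% of all windows. The second form TTCGAA was in the Bub1b window alone of the 7, and in 1.685% of all. No motif overlapped another. The windows of Plk1, Ttk, Birc5 and Nek2 are shown because these are the genes measured on the array whose windows hold a match. Each runs from 90 bases before to 20 bases after the start and reads along the gene strand, which is the plus strand in all 4, with TTTGAA (as TTCAAA where it lies on the minus strand) and CCAAT in capitals. Plk1 is from chr1:186147568-186147677, Ttk from chr8:93634549-93634658, Birc5 from chr10:103572056-103572165 and Nek2 from chr13:105936719-105936828.
Plk1: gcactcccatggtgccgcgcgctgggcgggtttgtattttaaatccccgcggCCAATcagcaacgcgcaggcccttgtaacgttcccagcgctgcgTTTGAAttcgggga
Ttk: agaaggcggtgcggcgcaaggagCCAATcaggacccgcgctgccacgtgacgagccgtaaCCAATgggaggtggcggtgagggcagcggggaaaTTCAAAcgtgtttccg
Birc5: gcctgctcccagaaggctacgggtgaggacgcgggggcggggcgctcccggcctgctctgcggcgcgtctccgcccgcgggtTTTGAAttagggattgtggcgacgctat
Nek2: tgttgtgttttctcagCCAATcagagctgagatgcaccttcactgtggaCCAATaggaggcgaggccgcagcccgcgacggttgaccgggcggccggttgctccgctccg

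In Plk1 the TTTGAA lay at bases 7 to 12 after the start and CCAAT at -38 to -34. In Ttk the element lay on the minus strand at bases 5 to 10, with CCAAT at -67 to -63 and at -30 to -26. In Birc5 it lay at -8 to -3, with a CCAAT at -213 that is outside the printed stretch. Nek2 had CCAAT at -74 to -70 and at -41 to -37 and no TTTGAA in its window. The windows of Aurka and Bub1 held neither. In all windows, 5.187% had TTTGAA within 50 bases of the start. These matches describe letters and not binding.

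**Figure D1:**
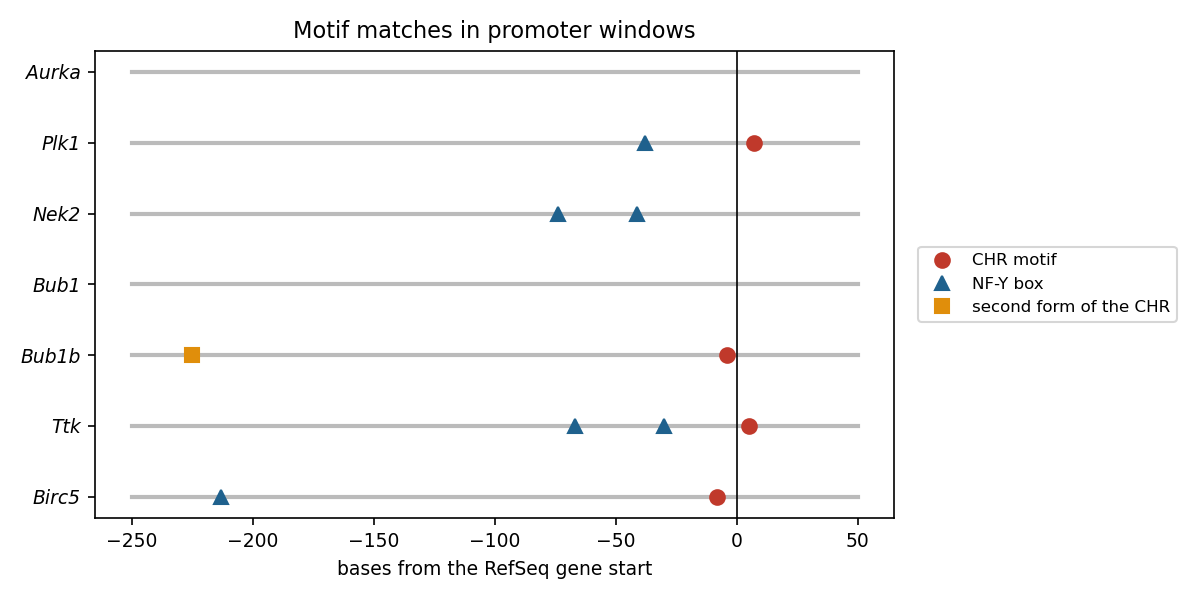
Motif matches in the 7 RefSeq promoter windows, with bases from the gene start on the horizontal axis and 1 row per gene. The CHR motif lies near the start in Plk1, Bub1b, Ttk and Birc5, and Aurka and Bub1 have no match.

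Aurka, the Aurora A kinase, had a level of 0.30 in knockdown cells and 0.11 in the knockdown negative control. It was 0.33 in overexpression cells, 1.13 in the overexpression negative control and 1.50 in normal cells. Aurka was therefore low on 3 transduced arrays and high in the overexpression negative control and in normal cells. The log2 difference of knockdown from its negative control was 0.19 (95% scanner interval -0.21 to 0.59), and that of overexpression from its negative control was -0.81 (-1.21 to -0.41), a 1.75-fold lower value.

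Tpx2, which activates Aurora A and carries it to the spindle, showed another order. Its level was 0.32 in knockdown cells and -3.28 in the knockdown negative control. It was -3.11 in overexpression cells, -3.39 in the overexpression negative control and -1.60 in normal cells. Knockdown cells stood highest, normal cells next, and the other 3 transduced arrays low and close together. In scanner units the probe read 1764 in knockdown cells, 70.6 in the knockdown negative control, 76.8 in overexpression cells, 53.1 in the overexpression negative control and 444 in normal cells. The knockdown value was 12.1-fold higher than its negative control (log2 3.60, 3.18 to 4.01). Overexpression differed from its negative control by 0.27 (-0.19 to 0.73). A kinase and its activator thus had unlike profiles over the same 5 arrays.

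Aurkb, the kinase of the passenger complex, had a level of -0.45 in knockdown cells, against -4.49 in the knockdown negative control. It was -4.83 in overexpression cells and -4.45 in the overexpression negative control, and -1.99 in normal cells. As with Tpx2, knockdown cells were highest, normal cells second and the other 3 arrays low. Its probe read 1037 in knockdown cells, 30.6 in the knockdown negative control, 23.5 in overexpression cells, 25.4 in the overexpression negative control and 337 in normal cells. The knockdown value was 16.4-fold higher than its negative control (log2 4.04, 3.55 to 4.53). The 3 low values lay within each other's scanner error: overexpression differed from its negative control by -0.37 (-1.04 to 0.29).

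Incenp, the scaffold that binds and activates Aurora B, had a level of 0.62 in knockdown cells and -1.50 in the knockdown negative control. It was -1.27 in overexpression cells, -0.59 in the overexpression negative control and 0.54 in normal cells. Knockdown and normal cells were both high, with a difference of 0.08 (-0.32 to 0.48), and the knockdown value was 4.36-fold higher than its negative control. Birc5, the survivin subunit of the complex and also an inhibitor of apoptosis, had 0.88 in knockdown cells and 0.61 in the knockdown negative control. Birc5 had 1.21 in overexpression cells, 1.93 in the overexpression negative control and 1.97 in normal cells. Its order was like that of Aurka, with a difference of 0.27 (-0.13 to 0.67) between knockdown and its negative control. Cdca8 (borealin), the fourth core subunit and not one of the 10 genes, was 4.61-fold higher in knockdown cells than in the negative control. Thus 3 of the 4 core subunits were called higher in knockdown cells than in the knockdown negative control, and Birc5 was not. Over all genes, 8.53% were called higher in that comparison. Against the overexpression negative control and against normal cells, 2 of the 4 were called higher, where 13.6% and 11.2% of all genes were.

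Plk1 was the one measured gene with a level below its negative control in knockdown cells. It had 1.41 in knockdown cells and 1.97 in the knockdown negative control. It had 2.72 in overexpression cells, 3.35 in the overexpression negative control and 3.28 in normal cells. Knockdown cells were thus the lowest of the 5 arrays for Plk1 and the highest for Aurkb and Tpx2. The difference from the negative control was -0.55 (-0.95 to -0.15), a 1.47-fold lower value and no call. Against normal cells Plk1 was 3.65-fold lower in knockdown cells, and against the overexpression negative control 3.83-fold lower, both called.

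Nek2, a centrosomal kinase, was dim and was read by a pair of probes. The brighter one had a level of -1.93 in knockdown cells and -5.17 in the knockdown negative control. The level was -5.70 in overexpression cells, -7.02 in the overexpression negative control and -4.04 in normal cells. It was not well above background on either overexpression array, so the measured difference of 1.32 between them (-0.79 to 3.43) gave no call. Knockdown cells were highest and normal cells second, as for Aurkb and Tpx2. The knockdown value was 9.48-fold higher than its negative control by this probe (log2 3.25, 2.71 to 3.79). The second Nek2 probe gave 5.84-fold (log2 2.54), and both probes gave a call.

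Bub1, a checkpoint kinase that recruits other checkpoint proteins to kinetochores, had a level of 2.76 in knockdown cells and 1.70 in the knockdown negative control. It had 2.06 in overexpression cells, 2.93 in the overexpression negative control and 3.15 in normal cells. The knockdown level was 2.09-fold higher than its negative control (log2 1.06, 0.66 to 1.46), below the call. It was close to the overexpression negative control, with a difference of -0.16 (-0.56 to 0.24). A second, dim Bub1 probe gave 0.71 (0.24 to 1.19) against the knockdown negative control. Ttk, the kinase that starts checkpoint signalling, had 2.01 in knockdown cells and 0.94 in the knockdown negative control. Ttk had 0.66 in overexpression cells, 1.30 in the overexpression negative control and 2.10 in normal cells. Knockdown and normal cells were both high for Ttk, with a difference of -0.09 (-0.49 to 0.31), and the difference from the knockdown negative control was 1.07 (0.67 to 1.47), a 2.10-fold higher value and no call.

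**Figure D2:**
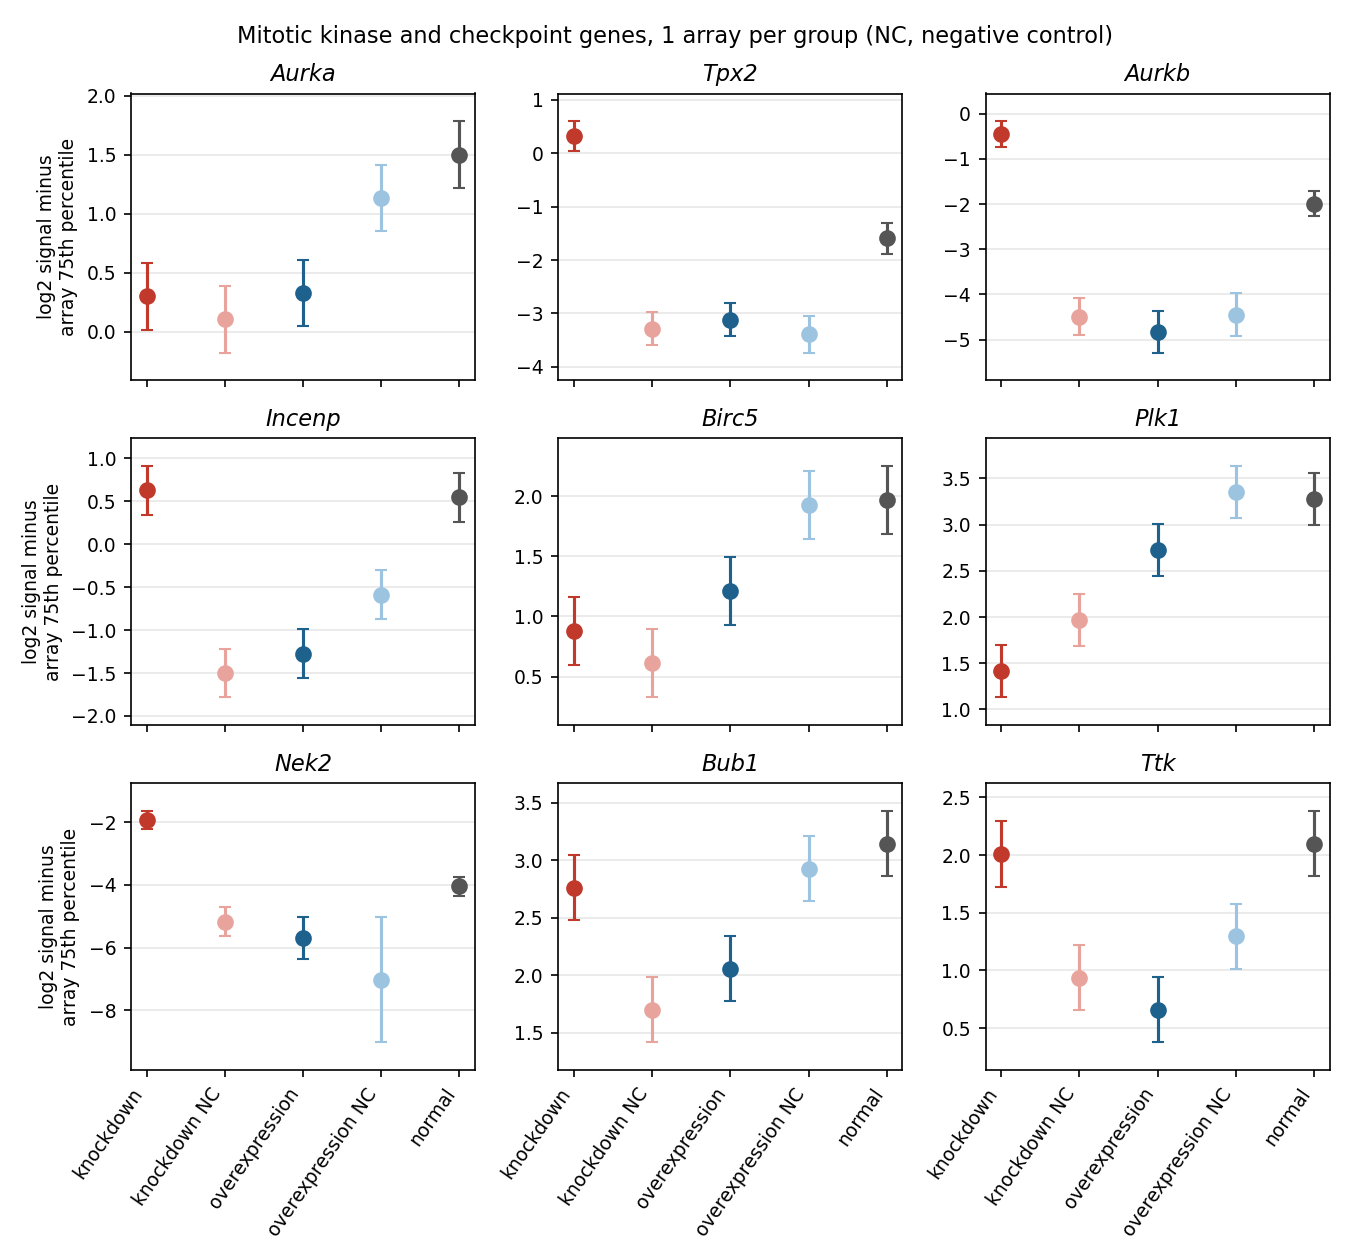
Level of the 9 measured genes on each array, as log2 signal minus the array's 75th percentile, 1 point per group with bars of the 95% scanner interval and a vertical scale for each gene. Knockdown cells are the highest array for Tpx2, Aurkb and Nek2 and the lowest for Plk1, and for Incenp they lie within the scanner interval of normal cells.

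Set against its negative control, knockdown had 4 of the 9 genes called higher (Aurkb, Tpx2, Nek2 and Incenp) and 0 called lower. Over all genes tested, 8.53% were called higher and 10.1% lower. The median log2 difference of the 9 genes was 1.07, against -0.17 over all genes, and 8 of 9 were above 0. The 4 calls were made under 7 of 7 scalings and probe rules, and Bub1 and Ttk were called under 4 of the 7. The size of the dim genes' differences changed with background correction: under normexp, a model-based correction of the raw spot signal, the log2 difference was 2.46 for Aurkb, 2.52 for Tpx2 and 1.49 for Nek2. The share of all calls that were higher was 45.7%, and under the alternatives it lay between 34.1% (normexp) and 71.2% (the percentile over probes above background on all arrays). The median of all genes moved with it, from -0.42 to 0.14. Relative to that median the 9 genes stood 1.24 above it in the reported values and 1.16 to 1.68 above it under the other 6. The knockdown array was also the brightest of the transduced arrays, and the part of brightness in the differences was not tested.

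The knockdown array was then set against the other 2 arrays without a Tmub1 virus, and these comparisons share it. Against the overexpression negative control, 3 genes were called higher (Aurkb 16.0-fold, Tpx2 13.0-fold and Nek2 at least 11.2-fold) and Plk1 was called lower, where 13.6% of all genes were called higher and 16.1% lower. Incenp was 2.32-fold higher there, Bub1 1.12-fold lower and Aurka 1.78-fold lower. Against normal cells the same 3 were called higher, Aurkb 2.91-fold, Tpx2 3.76-fold and Nek2 4.33-fold, and Plk1 was again called lower. All genes gave 11.2% higher and 19.3% lower in that comparison. Sorted after these values were seen, the genes fell into 3 kinds in knockdown cells. Aurkb, Tpx2 and Nek2 were called higher against both negative controls and normal cells. They were also the dimmest of the 9 in normal cells, with levels of -4.04 to -1.60, against 0.54 or more for the others. The part of probe brightness in this sorting was not tested. Incenp, Bub1 and Ttk were above the knockdown negative control and within 0.38 of normal cells on the log2 scale. Incenp too was highest in knockdown cells, by 0.08 over normal cells. Aurka, Birc5 and Plk1 lay below normal cells by 1.09 to 1.87. The median of the 9 genes was 0.71 against the overexpression negative control and -0.09 against normal cells, where it was 0.03 to 0.18 under the other scalings and in the authors' table. Under normexp, 1 gene was called higher against normal cells.

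**Figure D3:**
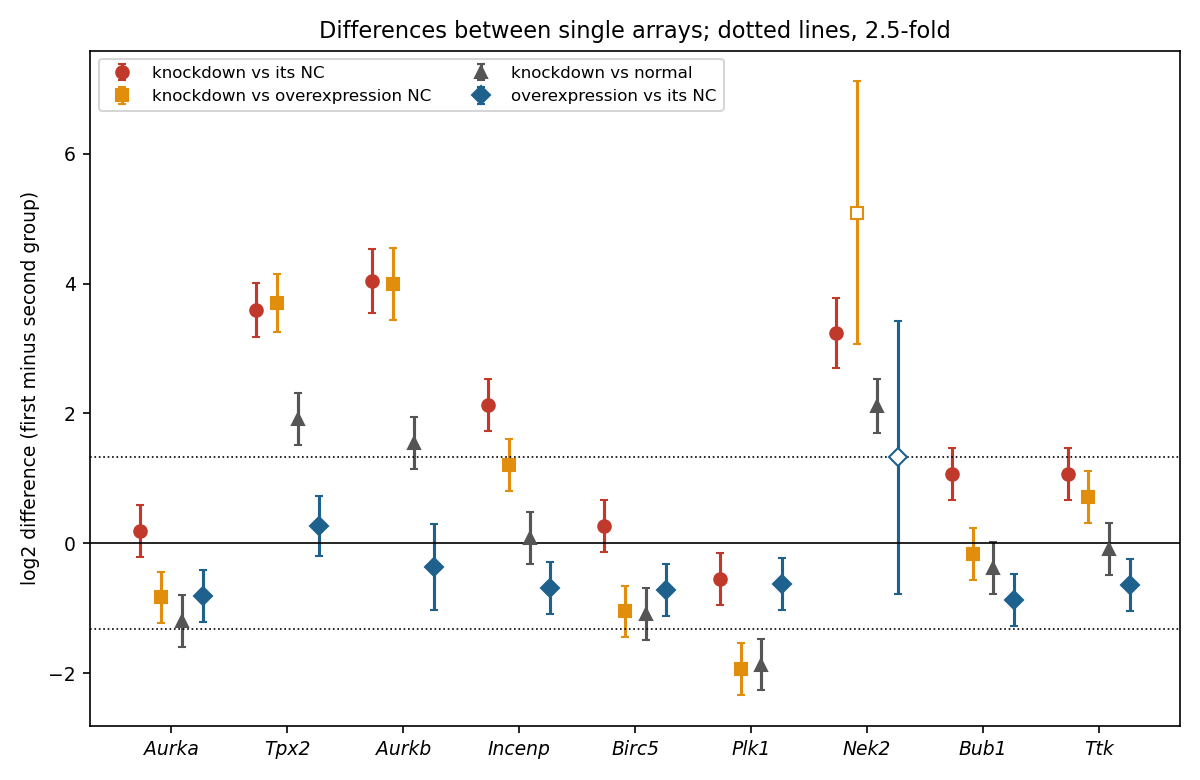
Log2 differences of the 9 genes between single arrays, first group minus second, with bars of the 95% scanner interval, dotted lines at 2.5-fold and open symbols where 1 or both arrays were not well above background. Aurkb, Tpx2 and Nek2 lie above the upper line for knockdown against each of its 3 references, and Plk1 lies below the lower line against 2 of the 3.

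With overexpression, no gene was called against the overexpression negative control, over 8 genes with a value bright enough to call. Over all genes 1.71% were called higher and 1.01% lower. The 9 differences ran from -0.87 (Bub1) to 1.32 (Nek2, not above background on these arrays), with a median of -0.64, against 0.01 over all genes. Of the 9, 7 were below 0: Bub1, Aurka, Birc5, Incenp, Ttk, Plk1 and Aurkb. Bub1 was 1.83-fold lower, Birc5 1.65-fold lower and Ttk 1.55-fold lower in overexpression cells, each with an interval below 0. Set against the knockdown negative control instead, the median of the 9 was 0.22, so the direction rested on which control virus served. Tmub1 RNA differed by 0.07 between these arrays.

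The negative controls were themselves unlike in these genes. The knockdown negative control set against the overexpression negative control gave 1 call of 9, Plk1 2.61-fold lower, and 0 higher (0 and 0 under every other scaling), where all genes gave 5.22% higher and 3.38% lower. Plk1, Birc5, Bub1, Aurka, Incenp and Ttk were lower in the knockdown negative control, by log2 differences of -1.39, -1.32, -1.23, -1.03, -0.91 and -0.36, and the median over the 9 was -0.91, against 0.01 over all genes. Aurkb and Tpx2 differed little, by -0.04 (-0.66 to 0.59) and 0.10 (-0.36 to 0.56). For 4 of the 9 genes the controls differed by more than knockdown did from its own control. Whatever the sign, knockdown differed by log2 1.06 for Bub1, 0.27 for Birc5 and 0.19 for Aurka and the controls by log2 -1.23, -1.32 and -1.03, and Plk1 differed by -0.55 with knockdown and by -1.39 between the controls. For Aurkb, Tpx2, Incenp, Ttk and Nek2 the knockdown difference was the larger.

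The other 3 transduced arrays were then set against normal cells. In overexpression cells 5 genes were called lower (Aurkb 7.13-fold, Incenp 3.53-fold, Nek2 at least 3.15-fold, Tpx2 2.86-fold and Ttk 2.71-fold) and 0 higher, where all genes gave 9.38% lower and 7.26% higher. In the knockdown negative control 6 were called lower (Aurkb 5.65-fold, Incenp 4.13-fold, Tpx2 3.22-fold, Bub1 2.73-fold, Aurka 2.63-fold and Birc5 2.56-fold) and 0 higher, against 9.52% and 7.06% of all genes. In the overexpression negative control 3 were called lower (Aurkb 5.51-fold, Tpx2 3.46-fold and Nek2 at least 2.58-fold) and 0 higher, against 9.94% and 7.60% of all genes. The medians were -1.44, -1.40 and -0.80, and all 9 genes were below normal on the first 2 of these arrays. Aurkb and Tpx2 were called lower in all 3, and under normexp in none of them. Under normexp the genes called lower numbered 2, 2 and 0. The Aurkb difference was then -1.28 in overexpression cells, -1.26 in the knockdown negative control and -0.99 in the overexpression negative control, and the Tpx2 difference was -1.02, -1.04 and -0.95. In overexpression cells the Tpx2 and Nek2 calls were made under 3 of 7 scalings and probe rules. The Nek2 call in the overexpression negative control was also made under 3 of 7. The comparisons share the normal array, and its scan differs from that of the others.

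The leukocyte marker list also differed between transduced and normal cells: 3 of its 4 measured genes (Cd74, Cd14 and Ptprc) were called higher in knockdown cells than in normal cells. Itgam and Ptprc were not above background in normal cells. Its summed linear level, relative to the 75th percentile, was 4.84 to 7.63 on the transduced arrays, against 0.74 in normal cells. Cd74, the invariant chain of class II molecules, was 138- to 209-fold higher on the transduced arrays than in normal cells, and Ptprc (CD45) was at least 7.79- to 12.3-fold higher. Pecam1, an endothelial marker, was at least 14.5-fold higher on each transduced array. Of the 4 measured endothelial markers, Pecam1 alone was called higher against normal cells, and 1 other was called lower in the knockdown negative control. The part of these markers in the differences from normal cells was not tested. Between knockdown and its negative control the leukocyte sum was 6.35 against 7.63, with 0 of 4 genes called.

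Other genes of the mitotic pathway were read from lists, with the 10 genes left out of each, and their counts stand beside the 8.53% of all genes called higher and the 10.1% called lower. In knockdown cells against their negative control, 6 of 15 genes in the list of other mitotic kinases were called higher and 0 lower, with a median of 1.23. That list also holds relatives by kinase family, such as Plk2 and Plk3, and not all of its genes are kinases of mitosis. Pbk, a kinase of dividing cells, was 5.02-fold higher, Nek6 4.95-fold, Nek7 3.99-fold and Plk2 3.92-fold. Nek6 and Nek7 act with the related kinase Nek9 on the spindle. Of 17 checkpoint and kinetochore genes, 5 were called higher and 0 lower, with a median of 0.63. Nuf2, of the Ndc80 complex that grips microtubules, was 8.05-fold higher, the checkpoint-silencing ATPase Trip13 3.36-fold, Knl1, which carries the docking sites of Bub1, 3.23-fold and Pmf1 2.82-fold. The list of Aurora A and Plk1 cofactors also holds other spindle and cytokinesis genes, such as Nusap1 and Prc1. Of its 9 genes, 3 were called higher and 0 lower: Bora, which lets Aurora A activate Plk1, was 5.03-fold higher, Nusap1 3.65-fold and Ajuba 3.39-fold. The cofactor median was 0.78, or 0.66 with dim values set at their bound.

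Mitotic exit and cyclin genes were mixed. Of 17 genes of the anaphase promoting complex and its partners, 4 were called higher and 1 lower, with a median of 0.66: the subunit Anapc7 was 4.46-fold higher, Cdc27 3.15-fold, the inhibitor Fbxo5 (Emi1) 3.03-fold and Cdc16 2.69-fold, while Anapc11, the catalytic RING subunit, was 2.75-fold lower. The list of mitotic cyclins and phosphatases also holds the phosphatase regulators Ensa and Arpp19. Of its 11 genes, 4 were called higher and 1 lower. Cyclin B2 (Ccnb2) was 5.12-fold higher, cyclin B1 (Ccnb1) 3.01-fold, Ppp2r2a 2.70-fold and Ensa 2.66-fold, and the Cdk-activating phosphatase Cdc25b was 4.03-fold lower. The list median was 1.18, or 0.60 with dim values at their bound. Of 17 transcription regulators of mitotic genes, 2 were called higher and 1 lower, with a median of -0.28, which as shares is near those over all genes. Foxm1, an activator of G2 and M genes, was 4.46-fold higher, Tfdp2 5.55-fold higher and the Cdk inhibitor Cdkn1a (p21) 3.25-fold lower. Against normal cells, knockdown cells differed by 1.15-fold for Foxm1 and 1.03-fold for Cdkn1a, and Tfdp2 was 4.08-fold higher. The knockdown negative control was 3.88-fold below normal cells for Foxm1, 3.36-fold above them for Cdkn1a and 1.36-fold below them for Tfdp2. Replication licensing genes gave 3 of 9 called higher and 0 lower, with a median of 1.06, led by Mcm6 at 9.09-fold, Orc1 at 3.35-fold and Cdc6 at 3.07-fold. Of 4 measured proliferation markers, cyclin E2 (Ccne2) alone was called, 6.47-fold higher.

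The list counts changed when knockdown cells were set against the other references, in comparisons that share the knockdown array. Over all genes, 13.6% were called higher and 16.1% lower against the overexpression negative control. Against normal cells these shares were 11.2% and 19.3%. Other mitotic kinases had 6 of 16 higher and 0 lower against the overexpression negative control (median 1.14), and 4 higher and 1 lower against normal cells (0.55). The 4 were Nek7 (7.55-fold), Plk2 (7.33-fold), Plk3 (4.31-fold) and Nek6 (2.99-fold), so they include the family relatives Plk2 and Plk3. Checkpoint and kinetochore genes had 5 of 17 higher and 3 lower against the overexpression negative control (0.08), and 1 higher and 2 lower against normal cells (0.03). Aurora A and Plk1 cofactors had 1 of 9 higher and 1 lower (0.26), and 1 higher and 0 lower (0.06), in the same order. The anaphase promoting complex list had 4 of 17 higher and 3 lower (0.13), and 2 higher and 2 lower (0.09). Against normal cells the cyclin and phosphatase list had 1 of 11 higher, the phosphatase regulator Ensa (3.24-fold), and 1 lower, Cdc25b (3.22-fold). The replication licensing list had 1 of 9 higher and 0 lower, and the transcription regulators 3 of 17 higher and 0 lower. Against the overexpression negative control those 3 lists had 2 higher and 1 lower, 4 higher and 0 lower, and 4 higher and 1 lower.

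**Figure D4:**
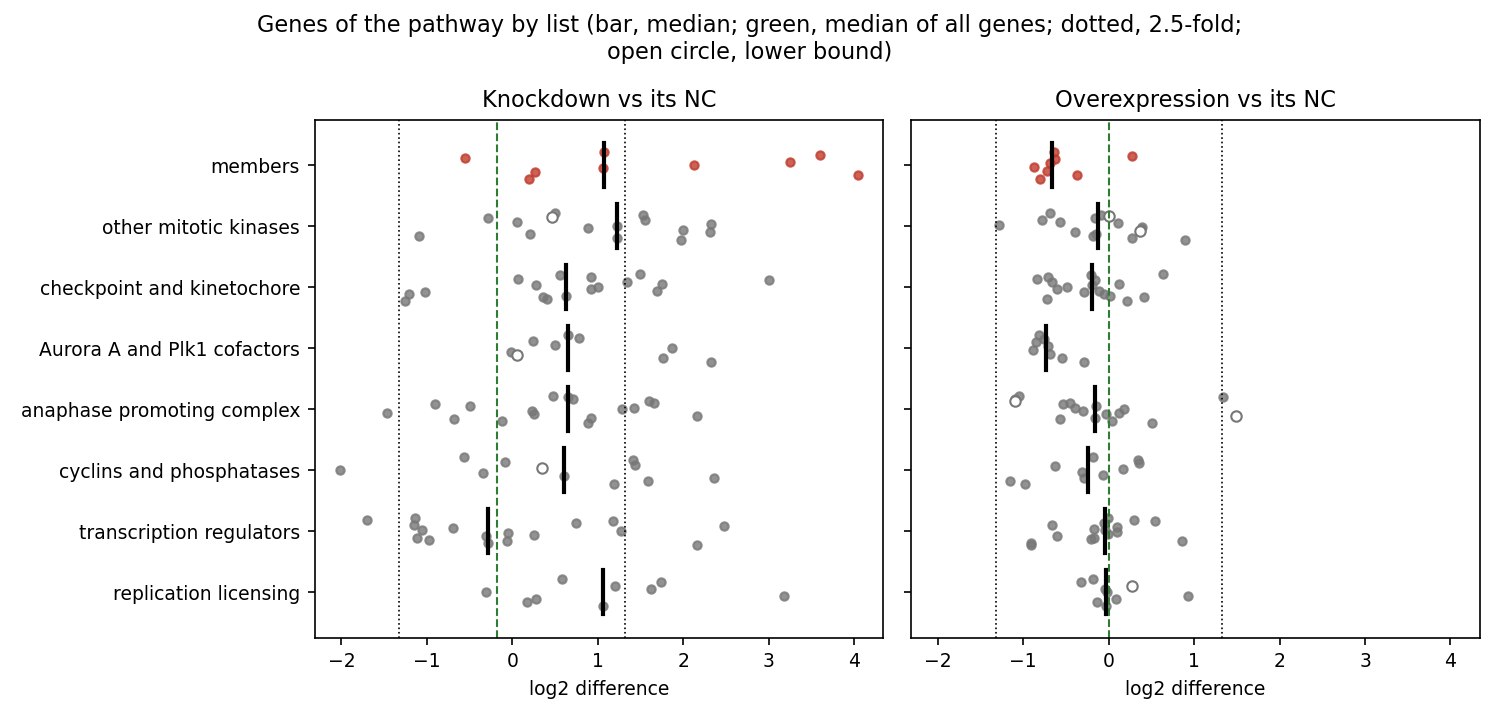
Log2 differences of the 10 genes' measured members and of 7 further lists, 1 point per gene, for knockdown (left) and overexpression (right) against their negative controls, with bars at the medians, the median of all genes in green, dotted lines at 2.5-fold and open circles where the value is a bound. The largest knockdown difference is that of Aurkb at 4.04, and the overexpression points lie mostly between the dotted lines.

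With overexpression against its negative control, these lists gave 2 calls, both in the anaphase promoting complex list of 17 genes. Over all genes 1.71% were called higher and 1.01% lower. The other lists had no call, with 17 checkpoint and kinetochore genes, 16 other mitotic kinases and 16 transcription regulators bright enough to call among them. Over the lists together the 2 calls are near the share over all genes. Anapc7 was at least 2.80-fold higher and Ube2s, the ubiquitin-conjugating enzyme that extends chains for the anaphase promoting complex, was 2.53-fold higher. Other mitotic kinases, checkpoint and kinetochore genes, and Aurora A and Plk1 cofactors had 0 calls and medians of -0.12, -0.19 and -0.73. Anapc7 and Ube2s were also called higher in the knockdown negative control against the overexpression negative control, at least 3.04-fold and 3.96-fold. Their list had 2 of 17 genes higher and 1 lower there, where all genes gave 5.22% higher and 3.38% lower. The overexpression negative control is shared by these comparisons. Foxm1, in the same comparison of the controls, was 3.30-fold lower in the knockdown negative control.

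To find genes with a like pattern, each of 10681 genes well above background on all 5 arrays was centred on its own mean, and its root mean square distance from the median profile of the 8 members that met the same limit was taken. Nek2 did not meet it. The median profile was 0.43 in knockdown cells, -0.76 in the knockdown negative control, -0.60 in overexpression cells, 0.15 in the overexpression negative control and 0.72 in normal cells. The nearest genes outside the members included Pole2, a subunit of DNA polymerase epsilon, at a distance of 0.06, Kif15, a mitotic kinesin, at 0.09, Fxyd3 at 0.10 and Zfp354c at 0.10. The median distance over all these genes was 0.78. Picked as the smallest of 10681 distances over 5 arrays, the nearest are close by selection, so no shared control is read from them. Plk1, Tpx2 and Aurkb lay farther from the profile than that median. Among the members, Bub1 (0.16) and Ttk (0.20) lay nearest their own median profile, Incenp (0.38), Aurka (0.41) and Birc5 (0.49) farther, then Plk1 (0.84), and Tpx2 (1.13) and Aurkb (1.34) farthest.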

How the data were processed

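The genes and lists were chosen with earlier results of these data known. Feature Extraction 11.0.1.1 is the scanner software per the file headers, whereas the submitters' processing notes give 9.1. The deposited scanner files hold a processed signal per spot in intensity units, background-subtracted by the scanner software and not scaled between arrays. The authors' deposited value table is in log2 units, with a median of 6.69 in each column, and served as an alternative; the sources used here do not name its software.

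Flagged and control spots were dropped, replicate spots averaged, and the log2 signal set relative to the array's 75th percentile. Probes were named through the RefSeq table, and each gene took the values of its brightest probe on average. Dim values were raised to the array's lowest well-above-background value, which makes a difference a bound. The call of 2.5-fold is that of the series' design text. Scanner intervals span 1.96 standard errors. Gene lists follow a naming rule: up to 4 genes per direction, with the largest differences past 2.5-fold, all members, Tmub1 and the 5 nearest profiles, of which 1 is not reported here. The calling step was checked on simulated arrays with known fold changes, which bears on the code and not on the calls. Alternatives were quantile and cyclic loess normalization and normexp with offset 50 on median pixel signals (limma 3.58.1, R 4.3.3), another percentile, other probe rules, thresholds of 2- and 4-fold and other reference arrays. Python 3.11.15 with pandas 2.3.3 was used. With 1 array per group, precision is limited by the number of arrays.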

Additional observations from a re-analysis of the deposited data

How the results depend on the processing

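No paired analysis was possible because each group has 1 array, so the groups share fewer than 2 replicate numbers, and no replicate could be left out. For knockdown against its negative control, Aurkb, Tpx2, Nek2 and Incenp were called higher under every scaling. Bub1 and Ttk were called higher under 4 of 7 scalings and probe rules. The median of 1.07 became 1.57 under quantile normalization, 1.57 under cyclic loess, 1.38 with the other percentile and 1.60 in the authors' table. Against the other negative control it was 0.71 with 1 gene lower, and against normal cells -0.0902 with 1 gene lower. For overexpression against its negative control the median was 0.22 against the other negative control, -0.23 against the mean of both and -1.44 against normal cells, where 5 genes were lower. Between the negative controls, the 1 lower gene became 0 under quantile normalization, cyclic loess, the other percentile, normexp, the authors' table and the 4-fold threshold, and 4 at 2-fold; the median with all probes averaged was -0.68.

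For knockdown against normal cells the median was 0.14 under quantile normalization, 0.13 under cyclic loess and 0.18 in the authors' table; normexp left 1 gene higher, 2-fold gave 3 lower, and 4-fold gave 1 higher and 0 lower. For overexpression against normal cells the median was -1.65 with the other percentile and -1.01 under normexp, with 2 lower under normexp and 1 at 4-fold. For the knockdown negative control against normal cells, 2 were lower under normexp and 2 at 4-fold. For the overexpression negative control against normal cells the median was -1.05 under quantile normalization, -1.03 under cyclic loess, -1.06 with the other percentile, -0.40 under normexp, -1.02 in the authors' table and -0.58 for genes above background on both arrays, with 0 lower under normexp and 1 at 4-fold. The cause of these changes was not tested.

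The share of all calls that were higher was 62.9% for overexpression against its negative control and 49.4% under normexp, and 60.7% between the negative controls and 46.2% under normexp. With the other percentile these shares were 67.8% and 66.9%. Against normal cells it was 36.7% in knockdown cells (65.5% under loess), 43.6% in overexpression cells (76.0%), 42.6% in the knockdown negative control (74.2%) and 43.3% in the overexpression negative control (81.7% under normexp). The share also fell: under normexp it was 32.1% in knockdown cells. With the other percentile it was 28.3% in overexpression cells, 29.7% in the knockdown negative control and 24.4% in the overexpression negative control. Dim genes such as Nek2 limit what these arrays resolve.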
